A study of Sus scrofa with 96 samples.

Results

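Jejunum mucosa and kidney cortex of pigs were compared gene by gene across 43 libraries, 19 of jejunum and 24 of kidney, out of the 96 libraries of a study of dietary D-xylose. Every count file was given to the sample whose title (plate well and number) is part of the file's own name, since the recorded link to a sample differed from the title for 90 of 96 files. Libraries under 1000000 counts were left out, which removed 5 of jejunum and none of kidney. The pigs (Sus scrofa) ate either a semi-purified diet without xylose or that diet with 8% D-xylose. The jejunum libraries comprised 9 on the xylose-free diet and 10 on xylose, and the kidney libraries 12 and 12. Liver and longissimus dorsi muscle made up the rest of the series. The labels do not link a jejunum sample to a kidney sample of one animal, so the libraries were fitted as independent samples and the p-values measure the spread between them.

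Both tissues carry an epithelium with a brush border, a dense apical layer of microvilli that multiplies the membrane available for transport. Enterocytes of the jejunum finish the digestion of starch, sugars and peptides at that surface and pass monosaccharides, amino acids, small peptides, fat and calcium towards the blood. Cells of the proximal tubule in the kidney cortex recover glucose, amino acids, phosphate and filtered protein from the glomerular filtrate, and they also secrete organic ions and make glucose. Many carriers of these epithelia belong to the same families of solute carrier (SLC) genes.

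RNA was measured with QuantSeq, in which a fragment comes from the 3′ end of a polyadenylated transcript. Jejunum libraries held 1044588 to 4925124 counts (median 2006321) and kidney libraries 1500278 to 6942566 (median 3084891). Levels are CPM, a gene's counts relative to the library total, scaled with TMM (trimmed mean of M-values) factors, and are compared for one gene across tissues, never between genes. Fold changes are log2 values of jejunum over kidney with their standard error (SE), positive where jejunum was higher. Adjusted p-values come from edgeR's quasi-likelihood F test over 10349 genes with sequencing lane as a covariate, with a threshold of 0.05. Kidney replicates 17, 5 and 7 were least like the median of the other kidney libraries (correlation over genes 0.826, 0.839 and 0.851), and jejunum replicates 15 and 5 least like jejunum (0.91 and 0.917). Values without some or all of these 5 libraries are given for SLC6A18 and for results whose sign changed without them. For other genes, only the replicate at the extreme is named in places. In bulk tissue, fewer cells of a type and less RNA per cell cannot be told apart. A gene at or near 0 in such 3′ counts may still be expressed, since the annotation used for counting is not stated. CYC1, a respiratory chain gene, was at 0 in every library of both tissues.

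The 4 markers of the tissue labels separated all libraries. SI (ENSSSCG00000011735), sucrase-isomaltase, the brush border enzyme that splits sucrose and isomaltose, lay between 214 and 1608 CPM in jejunum (median 530.1) and between 0 and 8.05 CPM in kidney (median 1.73). SLC5A1 (ENSSSCG00000010036), the sodium-glucose cotransporter SGLT1, ran from 1099 to 4675 CPM in jejunum (median 2196) and from 9.65 to 70.1 CPM in kidney (median 26.6). SLC34A1 (ENSSSCG00000037535), the sodium-phosphate cotransporter of the proximal tubule, ran the other way, from 6.08 to 37.6 CPM in jejunum (median 16.5) and from 683 to 2500 CPM in kidney (median 1626). No library of either tissue fell within the range of the other for these genes. UMOD (ENSSSCG00000007859), uromodulin of the thick ascending limb, reached 20.3 to 71.6 CPM in jejunum (median 37.9) and 461 to 11900 CPM in kidney (median 3293). Its lowest kidney level was in replicate 17 and its highest in replicate 7, where the next highest library stood at 5497 CPM. The log2 fold changes were 8.13 ± 0.29 for SI, 6.39 ± 0.22 for SLC5A1, -6.51 ± 0.22 for SLC34A1 and -6.38 ± 0.27 for UMOD, with adjusted p of 1.54e-29, 2.4e-30, 1.18e-30 and 8.23e-27.

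**Figure D1:**
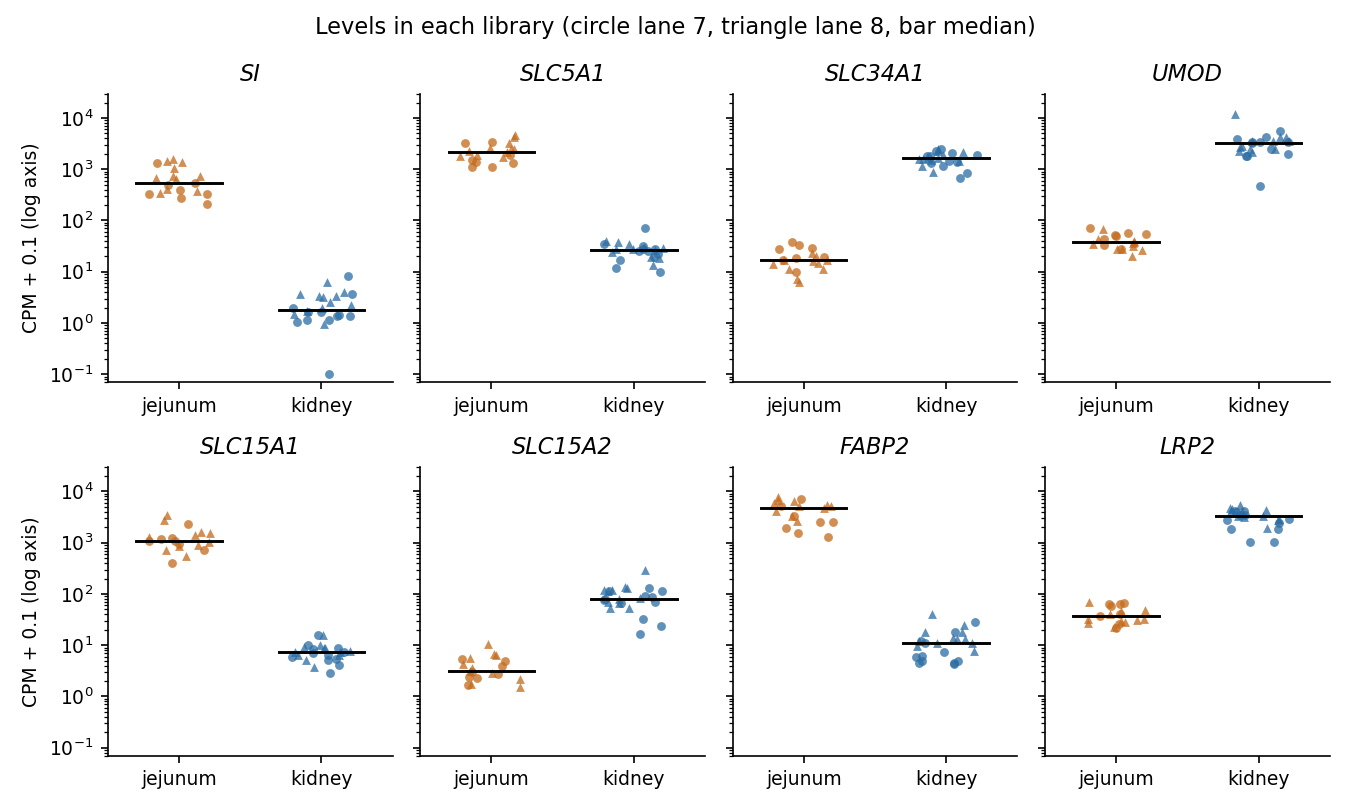
Level of 8 genes in each of 19 jejunum and 24 kidney libraries as CPM plus 0.1 on a log axis, with circles for lane 7, triangles for lane 8 and a bar at the median. SI, SLC5A1, SLC15A1 and FABP2 lie higher in every jejunum library than in any kidney library, and SLC34A1, UMOD, SLC15A2 and LRP2 the other way round.

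Most expressed genes differed between the tissues. Of the 10349 genes tested, 7792 (75.3%) passed the threshold, 3667 higher in jejunum (35.4%) and 4125 higher in kidney (39.9%). The median log2 fold change over all tested genes was -0.075. With a change of 2-fold or more also asked for, 4533 genes remained past it (43.8%), of which 1961 were higher in jejunum (18.9%) and 2572 in kidney (24.9%). In 1712 genes (16.5%) the ranges of the tissues did not overlap, 734 with jejunum higher (7.09%) and 978 with kidney higher (9.45%). These shares are the background for every count of list members below. Scaling by library totals alone moved the median to -0.314 and the share of calls that were higher in jejunum from 47.1% to 36.8%, and directions near 0 are read against that shift.

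The size of the differences was not the same on both sides. At 8-fold or more, 499 genes were higher in jejunum and 813 in kidney, at 32-fold or more 213 and 196, and at 128-fold or more 114 and 1. The kidney count at 128-fold was 5 in lane 7 alone, 6 in lane 8 alone, 11 on the xylose-free diet alone and 2 on xylose alone. The kidney gene at 128-fold over all libraries, ENSSSCG00000015084, has no symbol in the name table and is named here because its count was seen to be 1 (log2 fold change -7.55 ± 0.43). Among genes with at least 100 CPM in their higher tissue, the mean level in the lower tissue was under 1% of that in the higher for 68 of 1162 genes higher in jejunum and for 4 of 965 genes higher in kidney, namely ENSSSCG00000015084, DUSP9, KLK1 and CDH16. A further 46 of the kidney genes and 23 of the jejunum genes lay from 1 to 2%. Among the kidney genes of that range, the jejunum mean was 1.02% of the kidney mean for MIOX, 1.11% for SLC34A1, 1.2% for UMOD and 1.28% for LRP2. The part that such low levels in jejunum play in the kidney counts at 32-fold and 128-fold was not tested. Among genes that have a symbol, counting only those that averaged at least 50 CPM in their higher tissue, the largest differences belonged in jejunum to MUC13, TFF3, MYO1A, LGALS2, LGALS4, FABP2, AQP10, EPS8L3, CHST4 and SPINK1, with log2 fold changes from 8.28 to 9.06. They include mucus layer genes (MUC13, a transmembrane mucin, and TFF3, a trefoil peptide of goblet cells) and galectins of the gut epithelium (LGALS2, LGALS4). SPINK1 (ENSSSCG00000034511), a secreted trypsin inhibitor, ran from 2316 to 21190 CPM in jejunum (median 8208) and from 14.3 to 69.2 CPM in kidney (median 23.3). In kidney they belonged to KLK1, CDH16, MIOX, DUSP9, WFDC2, SLC34A1, STRA6, GLB1L2, SLC22A12 and UMOD, from -6.38 to -6.78. KLK1 (ENSSSCG00000024668), tissue kallikrein, ran from 0 to 11.8 CPM in jejunum (median 2.92) and from 77.8 to 903 CPM in kidney (median 313.8), and CDH16, kidney-specific cadherin, from 1.4 to 9.04 CPM (median 5.18) and from 236.8 to 847 CPM (median 511.5).

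**Figure D2:**
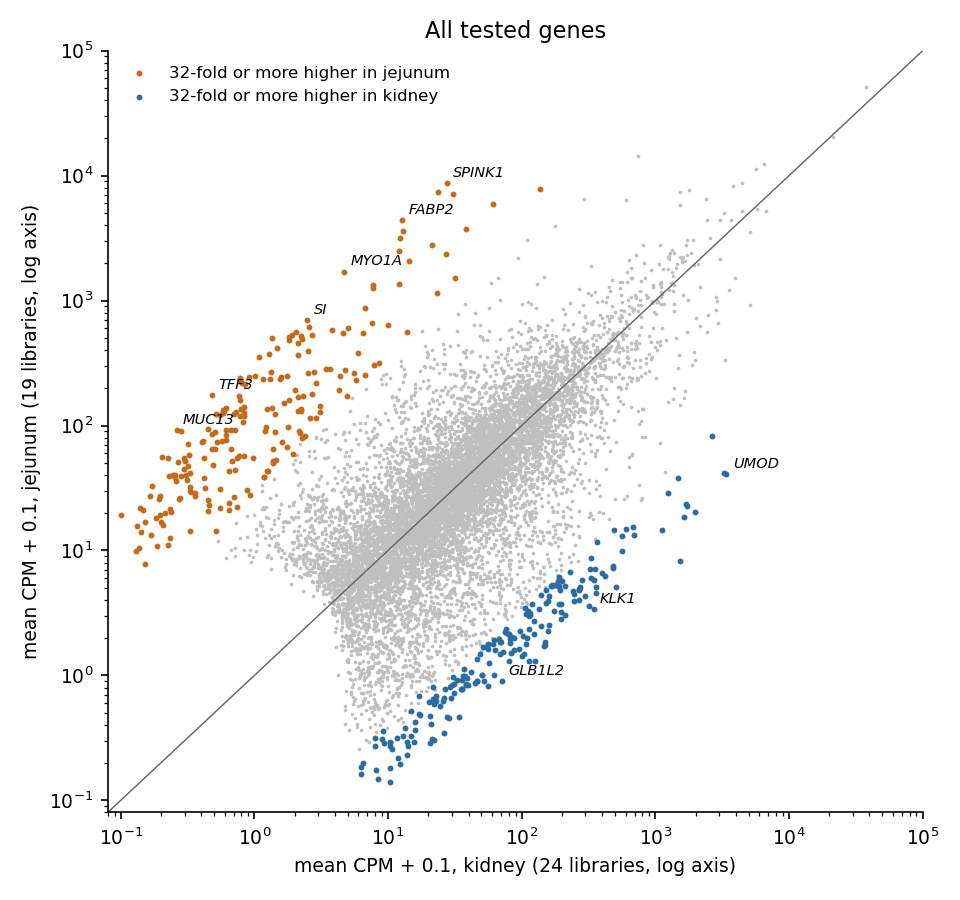
Mean CPM plus 0.1 of each tested gene in kidney (x axis) and jejunum (y axis), both log axes, with the line of equal levels. Orange points are the 213 genes at least 32-fold higher in jejunum and blue points the 196 at least 32-fold higher in kidney. SPINK1, FABP2 and MYO1A are among the labelled genes of jejunum, and KLK1 and UMOD among those of kidney.

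Sugar handling was divided between the tissues by step and by carrier. Of 4 disaccharidases listed, 2 were tested and both were higher in jejunum: beside SI, MGAM (ENSSSCG00000034639), maltase-glucoamylase, stood at 1100 to 5509 CPM (median 2450) against 6.27 to 42.97 CPM in kidney (median 20.7; log2 fold change 7.03 ± 0.23, adjusted p = 1.32e-30). Trehalase (TREH) had too few counts to be tested. Of 12 sugar carriers listed, 8 were tested, 4 higher in each tissue (median log2 fold change 0.01; it was -0.23 with library totals). Facing SLC5A1, its kidney counterpart SLC5A2 (ENSSSCG00000024058), the SGLT2 cotransporter that recovers most filtered glucose, was counted at 0 to 1.88 CPM in jejunum (median 0.25) and 2.45 to 33.8 CPM in kidney (median 4.92). The ranges did not overlap (log2 fold change -3.51 ± 0.43, adjusted p = 4.7e-10), but the whole of the signal was 19 counts in jejunum and 621 in kidney. SLC2A2 (ENSSSCG00000020927), the GLUT2 facilitative carrier of the basolateral membrane, ran from 211 to 646 CPM in jejunum (median 372) and from 21.5 to 65.2 CPM in kidney (median 35.1), a log2 fold change of 3.34 ± 0.14 (adjusted p = 3.45e-27). SLC2A5 (ENSSSCG00000039651), the fructose carrier GLUT5, overlapped between the tissues, at 17.9 to 211.5 CPM against 4.43 to 78.6 CPM, with a log2 fold change of 0.98 ± 0.22 (adjusted p = 8.67e-05); in lane 7 alone its adjusted p was 0.157, and on the xylose-free diet alone 0.054. Kidney was higher for SLC5A11, an inositol cotransporter (-1.41 ± 0.19), SLC2A12 (GLUT12, -2.66 ± 0.26) and SLC5A12 (ENSSSCG00000013338), a lactate cotransporter (-0.57 ± 0.19), whose adjusted p was 0.0686 in lane 7 alone and 0.142 on xylose alone. SLC5A9 (ENSSSCG00000003882), a mannose cotransporter, passed for jejunum at 0.60 ± 0.26 with adjusted p = 0.0351, and it missed the threshold in 11 of the alternative fits, with adjusted p up to 0.889.

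Peptide and amino acid carriers were divided between the tissues too. SLC15A1 (ENSSSCG00000009513), the low-affinity peptide carrier PEPT1 of the gut, ran from 406 to 3525 CPM in jejunum (median 1088) and from 2.78 to 15.8 CPM in kidney (median 7.25). SLC15A2 (ENSSSCG00000030305), the high-affinity carrier PEPT2 of the proximal tubule, ran from 1.45 to 10.3 CPM in jejunum (median 3.04) and from 16.5 to 290.5 CPM in kidney (median 80.3). Neither pair of ranges overlapped, and the log2 fold changes were 7.42 ± 0.24 (adjusted p = 3.62e-31) and -4.62 ± 0.27 (adjusted p = 2.96e-21). The same opposition held for the neutral amino acid carriers: SLC6A19, B0AT1, was higher in jejunum (134.5 to 686 against 6.4 to 189 CPM, 2.98 ± 0.29) and SLC6A18, a carrier of the same family, in kidney. SLC6A18 (ENSSSCG00000017117) ran from 0.9 to 4.26 CPM in jejunum (median 2.53) and from 41.7 to 1577 CPM in kidney (median 69.1), with a log2 fold change of -6.05 ± 0.51 (adjusted p = 3.55e-15). Its highest level was in kidney replicate 7, the next at 605 CPM, and without kidney replicates 5, 7 and 17 the log2 fold change was -5.19. CLTRN (ENSSSCG00000035893), collectrin, an accessory protein that brings such carriers to the membrane, stood at 14.2 to 61.9 CPM in jejunum (median 23.3) and 184.8 to 1278 CPM in kidney (median 746; -4.92 ± 0.20).

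Of the 12 apical amino acid and peptide carriers and partners listed, 11 were tested, 7 higher in jejunum and 3 in kidney (median log2 fold change 1.23). The jejunum side also held SLC7A9, the b0,+ cystine carrier (2.35 ± 0.19), SLC6A20, an imino acid carrier (2.27 ± 0.17), SLC36A1, a proton-coupled carrier (1.69 ± 0.22), SLC6A6, the taurine carrier (1.23 ± 0.18), and SLC1A1 (ENSSSCG00000005222), a glutamate carrier (adjusted p = 0.0927 in lane 7 alone). SLC3A1, the heavy subunit that pairs with SLC7A9, did not pass (1.88 to 32.2 CPM against 3.67 to 15.7 CPM, 0.14 ± 0.26, adjusted p = 0.618). On the basolateral side, 5 of 8 listed carriers were tested: SLC16A10, an aromatic amino acid carrier (1.75 ± 0.15), and SLC43A2 (1.17 ± 0.13) were higher in jejunum, and SLC38A3, a glutamine carrier (-2.85 ± 0.34), SLC7A8 (-1.54 ± 0.18) and SLC38A2 (-0.41 ± 0.17, adjusted p = 0.027) in kidney. SLC38A2 (ENSSSCG00000000808) was at -0.90 in lane 7 alone and -0.04 in lane 8 alone (adjusted p = 0.874), and its call was lost in 5 alternative fits. None of the 5 had ranges that stayed apart.

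Brush border peptidases were mostly higher in jejunum. Of 14 listed, 10 were tested, 6 higher in jejunum and 2 in kidney (median log2 fold change 1.19). ANPEP (ENSSSCG00000001849), aminopeptidase N, ran from 1857 to 14630 CPM in jejunum (median 5586) and from 210.6 to 1002 CPM in kidney (median 565), a log2 fold change of 3.42 ± 0.20 (adjusted p = 4.92e-21). TMPRSS15, enteropeptidase, the activator of trypsinogen, reached 4.41 to 48.3 CPM in jejunum and was at 0 in 16 of 24 kidney libraries (7.16 ± 0.32). The meprin subunit MEP1B (2.33 ± 0.22), ACE (1.88 ± 0.31) and ENPEP, aminopeptidase A (0.51 ± 0.14), were also higher in jejunum. ENPEP (ENSSSCG00000009132) did not pass in lane 7 alone (adjusted p = 0.119), on xylose alone (0.0621) or with library totals alone (0.0828). XPNPEP2, a membrane aminopeptidase P, was higher in kidney without overlap (1.4 to 15.7 against 83.7 to 539.6 CPM, -4.50 ± 0.26), as was DPEP1, renal dipeptidase, with overlap (-2.49 ± 0.29). DPP4, dipeptidyl peptidase 4, stood at 152.1 to 480.6 CPM in jejunum (median 275.8) and 103.5 to 463 CPM in kidney (median 271.0), with a log2 fold change of -0.02 ± 0.15 (adjusted p = 0.917). MME, neprilysin, stood at 580.0 to 1844 CPM and 543 to 1291 CPM (0.22 ± 0.12, adjusted p = 0.101).

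**Figure D3:**
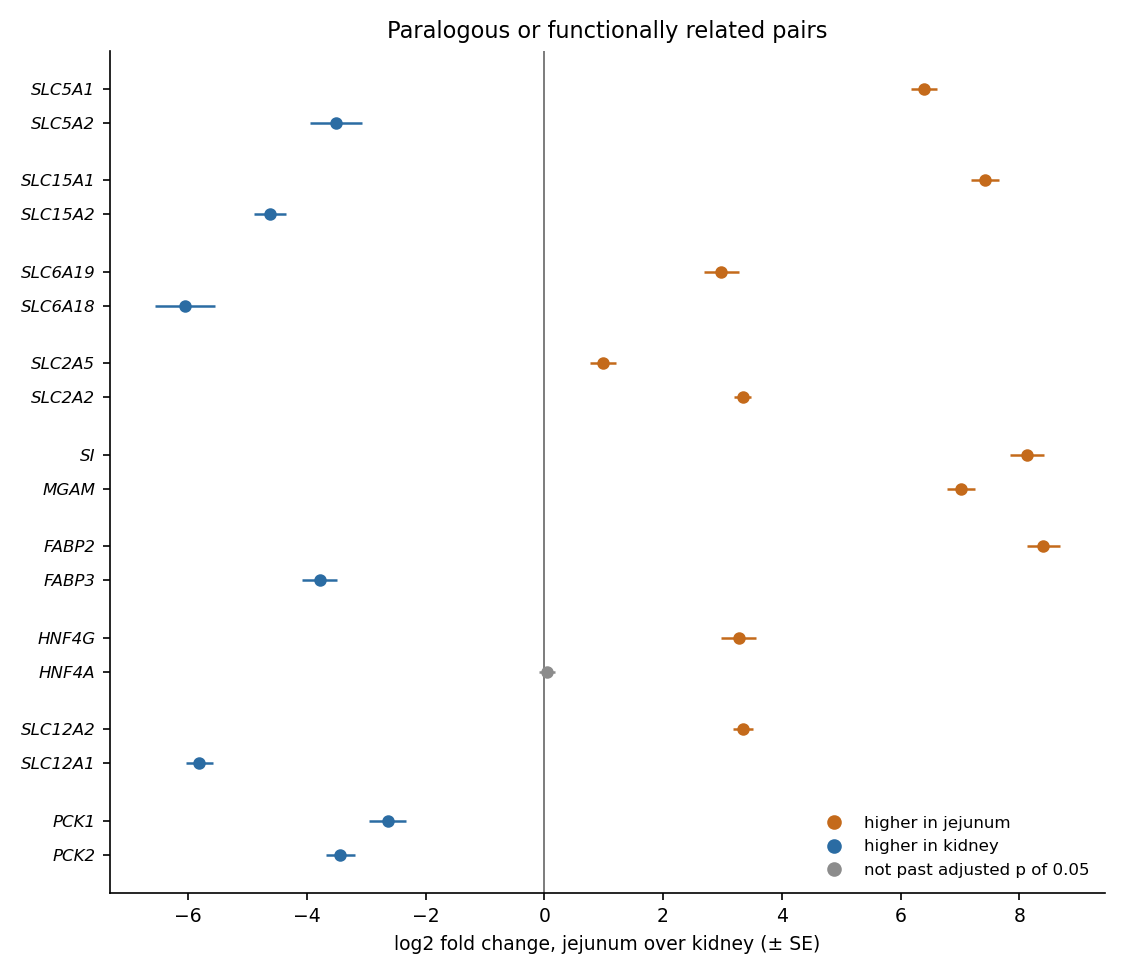
Log2 fold change of jejunum over kidney with its SE for the 9 pairs of related genes in which both members were tested, out of 16 pairs reported. SLC5A1 and SLC5A2, SLC15A1 and SLC15A2, SLC6A19 and SLC6A18, FABP2 and FABP3, and SLC12A2 and SLC12A1 lie on opposite sides of 0.

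Across the pairs of related genes reported, 9 of 16 had both members tested, and in 5 of these the members were called in opposite directions. Besides the 3 pairs of carriers above, they were the fatty acid binding proteins FABP2 (jejunum) and FABP3 (kidney, -3.78 ± 0.30), and the sodium-potassium-chloride cotransporters SLC12A2 (NKCC1, jejunum, 3.34 ± 0.16) and SLC12A1 (NKCC2 of the thick ascending limb, kidney, -5.81 ± 0.23). The pairs were chosen as counterparts, and the count is a description.

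Phosphate, sulfate and proton carriers went both ways, with counts close to the shares over all genes tested (35.4% higher in jejunum, 39.9% in kidney). Of 12 listed, 9 were tested, 3 higher in jejunum and 4 in kidney (median log2 fold change -0.17). SLC34A2, the phosphate cotransporter usually assigned to the gut, was at 0 in 14 of 19 jejunum and 16 of 24 kidney libraries and was not tested. Lack of expression cannot be read from these counts. SLC26A1, a basolateral sulfate exchanger of the tubule, ran from 1.4 to 7.8 CPM in jejunum and from 69.7 to 614 CPM in kidney (-5.99 ± 0.22), whereas SLC26A6, an apical anion exchanger, ran from 59.2 to 264.7 CPM in jejunum and from 6.64 to 58.8 CPM in kidney (2.83 ± 0.20). The proton exchanger SLC9A2 was higher in jejunum, and SLC13A1, a sodium-sulfate cotransporter (-1.46 ± 0.18), and SLC4A4, the bicarbonate exit path of the proximal tubule (-2.15 ± 0.11), in kidney. SLC34A3 did not pass (0.34 ± 0.19, adjusted p = 0.101). SLC20A1 (ENSSSCG00000032288) passed for jejunum at 0.24 ± 0.11 (adjusted p = 0.0396), and not in 10 alternative fits, with adjusted p up to 0.955.

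Organic ion carriers were the list that lay furthest to the kidney side. Of 12 listed, 8 were tested, 7 higher in kidney and 1 in jejunum (median log2 fold change -6.19). SLC22A2 (ENSSSCG00000004040), the cation carrier OCT2, ran from 5.53 to 29.8 CPM in jejunum (median 11.2) and from 470.3 to 2734 CPM in kidney (median 1015), a log2 fold change of -6.30 ± 0.23. SLC22A8 (OAT3, -6.08 ± 0.26), the urate carrier SLC22A12 (URAT1, -6.45 ± 0.34) and SLC47A2, a proton-coupled efflux carrier (-6.33 ± 0.23), were of like size. SLC22A6, the anion carrier OAT1, had 3 counts over the jejunum libraries and 831 over those of kidney, a ratio of 101.7 with a 95% counting interval of 34.69 to 494.3. SLC22A12 was highest in kidney replicate 17, at 648 CPM, with the next library at 387.5 CPM. The exception was ABCC2, the apical conjugate pump MRP2, at 123.0 to 718 CPM in jejunum and 55.4 to 327 CPM in kidney (1.08 ± 0.19). Among 7 tested of 10 vitamin and carboxylate carriers, SLC19A3, a thiamine carrier (1.79 ± 0.17), and SLC5A8, a monocarboxylate carrier (1.46 ± 0.25), were higher in jejunum and SLC13A3, a dicarboxylate carrier (-5.72 ± 0.22), and CUBN in kidney, with 3 not past the threshold (median -0.15).

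The proteins that build the brush border were mostly higher in jejunum, while those that take up filtered protein were higher in kidney. Of 18 structural genes listed, 16 were tested, 11 higher in jejunum and 3 in kidney, and 8 had ranges that did not overlap (median log2 fold change 1.58). MYO1A (ENSSSCG00000000413), brush border myosin I, ran from 1022 to 2504 CPM in jejunum (median 1700) and from 0.65 to 14.3 CPM in kidney (median 3.96), a log2 fold change of 8.53 ± 0.22 (adjusted p = 1.02e-34). The actin bundlers VIL1, villin (4.05 ± 0.17), and PLS1, plastin 1 (3.35 ± 0.13), the adaptor BAIAP2L1 (3.13 ± 0.11), and MYO7B of the intermicrovillar adhesion complex (3.05 ± 0.14) followed. On the kidney side were TMIGD1, an adhesion protein (0 to 12.6 against 89.9 to 684 CPM, -6.18 ± 0.24), the capping protein EPS8 (-1.58 ± 0.20) and EZR, ezrin (-1.40 ± 0.20).

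Of the 10 genes of endocytic uptake, all tested, 6 were higher in kidney and 2 in jejunum (median log2 fold change -1.50). LRP2, megalin, the receptor that recovers filtered protein, ran from 21.5 to 70.7 CPM in jejunum (median 37.8) and from 1022 to 5449 CPM in kidney (median 3363), a log2 fold change of -6.30 ± 0.23 (adjusted p = 2.86e-29). Its partner CUBN, cubilin, ran from 0.99 to 18.7 CPM and from 44.8 to 644 CPM (-3.64 ± 0.33), with the highest kidney level in replicate 17 and the next at 214 CPM. AMN, amnionless, which carries cubilin to the surface (-2.53 ± 0.22), the adaptor DAB2 (-2.35 ± 0.17) and the endosomal chloride exchanger CLCN5 (-2.41 ± 0.15) were higher in kidney in every library than in any of jejunum. On the jejunum side, OCRL (ENSSSCG00000012650), an endosomal phosphatase, stood at 0.60 ± 0.16 and was not past the threshold on the xylose-free diet alone (adjusted p = 0.214).

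Fat absorption genes were higher in jejunum nearly throughout. Of 20 listed, 15 were tested and 14 were higher in jejunum, none in kidney, with 13 sets of ranges that did not overlap (median log2 fold change 6.56). FABP2 (ENSSSCG00000037272), the intestinal fatty acid binding protein, ran from 1295 to 7847 CPM in jejunum (median 4728) and from 4.17 to 40.6 CPM in kidney (median 11.1), a log2 fold change of 8.40 ± 0.28 (adjusted p = 7.67e-31). RBP2, which carries retinol in enterocytes (7.93 ± 0.24), NPC1L1, the cholesterol uptake protein (7.85 ± 0.21), and the sterol exporter subunit ABCG8 (7.62 ± 0.24) were next in size. The chylomicron genes APOB (1351 to 12430 against 22.0 to 97.8 CPM, 6.56 ± 0.23), MTTP (6.78 ± 0.21) and APOA1 (1695 to 17190 against 81.7 to 263.4 CPM, 5.79 ± 0.25) were also higher in every jejunum library. In CPM of library totals, without TMM factors, the summed level of the list in kidney was 2.05 to 4.05% of the jejunum mean.

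Calcium genes went in both directions, and the 2 calbindins in opposite ones. Of 12 listed, 9 were tested, 3 higher in jejunum and 6 in kidney (median log2 fold change -3.08). S100G, calbindin-D9k, the calcium buffer of enterocytes, ran from 2190.0 to 13000 CPM in jejunum (median 6837) and from 14.8 to 83.8 CPM in kidney (median 24.4; 7.87 ± 0.24). CALB1, calbindin-D28k of the distal tubule, ran from 0.94 to 14.0 CPM and from 25.7 to 354 CPM (median 105.4; -4.57 ± 0.30). The plasma membrane pump ATP2B1 (2.20 ± 0.12) and the vitamin D receptor VDR (2.15 ± 0.19) were higher in jejunum, and the sodium-calcium exchanger SLC8A1 (-3.08 ± 0.19) in kidney. Also higher in kidney were PTH1R, the parathyroid hormone receptor (2.81 to 16.3 against 228.6 to 1021 CPM, -6.08 ± 0.22), CASR, the calcium-sensing receptor (-4.66 ± 0.33), CYP24A1, which inactivates vitamin D (-3.58 ± 0.34), and CYP27B1, which activates it (-2.21 ± 0.12).

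Enzymes of pentose and polyol metabolism, the pathway by which mammals can turn xylose into an intermediate of the pentose phosphate pathway, leaned to kidney. Of 14 listed, 13 were tested, 8 higher in kidney and 3 in jejunum (median log2 fold change -0.67). MIOX (ENSSSCG00000023749), the inositol oxygenase that opens the glucuronate-xylulose pathway, ran from 8.61 to 39.4 CPM in jejunum (median 17.02) and from 1472 to 2776 CPM in kidney (median 1990), a log2 fold change of -6.64 ± 0.19 (adjusted p = 2.36e-33). CRYL1, which oxidises L-gulonate in that pathway, ran from 97.0 to 256.7 CPM and from 358 to 2493 CPM (median 1630; -3.40 ± 0.19). The aldose reductase AKR1B1 (-1.94 ± 0.27), RPIA of the pentose phosphate pathway (-1.34 ± 0.26) and SORD, sorbitol dehydrogenase (-0.67 ± 0.14), were higher in kidney too. DCXR (ENSSSCG00000039873), xylulose reductase, was called for kidney at -0.56 ± 0.21 (adjusted p = 0.0178), with log2 fold changes of -0.02 in lane 7 alone and -1.11 in lane 8 alone.

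XYLB, xylulokinase, which phosphorylates D-xylulose, did not pass, at 44.1 to 178.7 CPM in jejunum (median 85.9) and 36.7 to 219.4 CPM in kidney (median 92.9; -0.03 ± 0.18, adjusted p = 0.9). The lanes went opposite ways for XYLB (ENSSSCG00000011254), at -0.60 ± 0.25 in lane 7 alone (adjusted p = 0.0399) and 0.41 ± 0.20 in lane 8 alone (adjusted p = 0.0613). On the jejunum side were UGDH, which makes UDP-glucuronate (229.2 to 2056 against 58.1 to 221.9 CPM, 3.19 ± 0.19), and KHK, fructokinase (1.16 ± 0.12). By diet, MIOX averaged 2111 ± 426 CPM without xylose and 1879 ± 260.4 CPM with it in kidney (SD, n = 12 each), and 18.0 ± 7.39 (n = 9) and 22.4 ± 11.0 CPM (n = 10) in jejunum.

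The metabolic genes of the tubule were higher in kidney. Of 13 listed, 12 were tested, 10 higher in kidney and 1 in jejunum (list median -2.91). GATM, the enzyme of the opening step of creatine synthesis, ran from 23.7 to 65.0 CPM in jejunum (median 40.5) and from 378.5 to 2878 CPM in kidney (median 1028; -4.79 ± 0.23). AGXT2 (-4.27 ± 0.23) and BHMT (-4.12 ± 0.36), of amino acid and betaine metabolism, followed. Of the gluconeogenic enzymes, FBP1 (-3.17 ± 0.19), PCK2 (-3.44 ± 0.24), PCK1 (109.2 to 986 against 211.4 to 4455 CPM, -2.64 ± 0.31) and G6PC1 (-1.04 ± 0.22) were all higher in kidney. The lowest kidney level of PCK1 was in replicate 17.

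**Figure D4:**
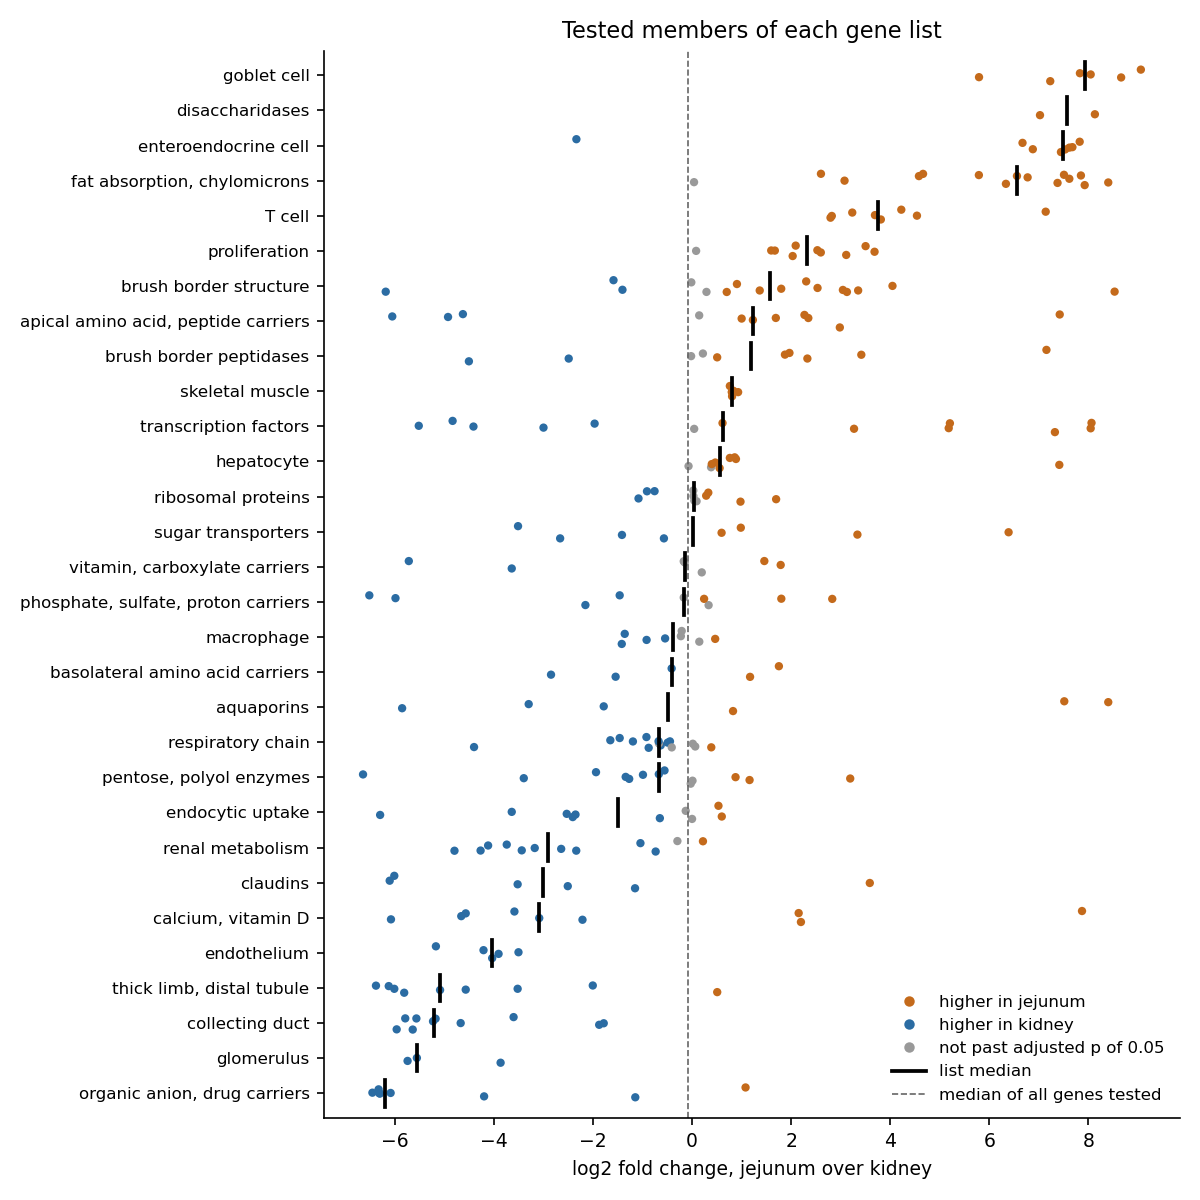
Log2 fold change of jejunum over kidney (x axis) for the tested members of 30 gene lists, coloured by call, with each list's median as a black bar and the median of all genes as a dashed line. Goblet cell, disaccharidase, enteroendocrine and fat absorption genes lie furthest to the jejunum side, and organic ion carrier, glomerulus and collecting duct genes furthest to the kidney side.

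Most tested markers of nephron segments were higher in kidney than in jejunum. Of 6 glomerulus genes found by symbol, 3 were tested and all were higher in kidney, among them the podocyte genes WT1 (-5.74 ± 0.25) and PTPRO (-3.86 ± 0.25). The rest of these genes had too few counts in both tissues to be tested. Of 9 tested genes of thick limb and distal tubule, 8 were higher in kidney, among them SLC12A3, the thiazide-sensitive cotransporter (-6.12 ± 0.51), CLDN19 (-6.01 ± 0.29) and EGF (-5.09 ± 0.17), and TRPM6, a magnesium channel, was higher in jejunum by 0.51 ± 0.20 (not past the threshold in 5 alternative fits). All 10 tested genes of the collecting duct were higher in kidney, with the sodium channel subunits SCNN1G (-5.79 ± 0.28) and SCNN1B (-5.64 ± 0.28) and the proton pump subunits ATP6V0D2 (-5.96 ± 0.38) and ATP6V1G3 (-5.56 ± 0.26) at the lower end. AQP2, the vasopressin-regulated water channel, was at 0 in all 19 jejunum libraries and in 19 of 24 kidney libraries, and was not tested. Such counts do not show that AQP2 is unexpressed. The summed thick limb list ran from 1346 CPM (replicate 17) to 13150 CPM (replicate 7) among kidney libraries, whereas the collecting duct list ran from 612 to 1232 CPM.

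Genes of the secretory cells of the gut epithelium were higher in jejunum, with 1 exception. All 6 tested goblet cell genes were higher in jejunum (median log2 fold change 7.94), led by MUC13 (9.06 ± 0.35), TFF3 (8.66 ± 0.28) and SPINK4 (8.05 ± 0.27). MUC2, the secreted gel mucin, was at 0 in all 24 kidney libraries and at 0.92 to 9.34 CPM in jejunum, and was not tested; against 3 counts over the kidney group its level in jejunum was at least 149.8-fold higher. Of 8 tested enteroendocrine genes, 7 were higher in jejunum, among them the hormones GIP (31.2 to 188.4 against 0 to 1.32 CPM, 7.68 ± 0.28), CCK (7.62 ± 0.33) and GCG (7.53 ± 0.29). SCG5, a secretory granule chaperone, was higher in kidney (2.71 to 15.5 against 18.8 to 66.9 CPM, -2.33 ± 0.19).

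Cell division genes were higher in jejunum, in 9 of 10 tested (median 2.31), with CDK1 (3.69 ± 0.33), TOP2A (71.9 to 285.0 against 8.04 to 25.4 CPM, 3.50 ± 0.15), CCNB1 (3.11 ± 0.28) and UBE2C (2.60 ± 0.23) at the top. Of the 6 tested crypt and stem cell genes, OLFM4 (118.0 to 1213 against 0.46 to 4.5 CPM, 8.24 ± 0.29), SOX9 (4.09 ± 0.31) and RNF43 (2.48 ± 0.14) were higher in jejunum and LGR5 (-1.98 ± 0.32) and AXIN2 (-0.79 ± 0.30) in kidney, with levels of LGR5 of at most 12.4 CPM. AXIN2 (ENSSSCG00000017265) did not pass in lane 7 alone (adjusted p = 0.203), on the xylose-free diet alone (0.287) or with all libraries kept (0.138).

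Immune and stromal cell lists went in different directions. All 8 tested gene identifiers of the T cell list were higher in jejunum (median 3.75), with CD3D at 21.4 to 78.0 CPM against 0.58 to 3.97 CPM (4.54 ± 0.17) and GZMA, granzyme A, whose symbol belongs to 2 gene identifiers, at 7.14 ± 0.26 and 2.80 ± 0.27. PIGR, the epithelial receptor that carries immunoglobulin A into the lumen, ran from 2552 to 11550 CPM in jejunum and from 99.8 to 777 CPM in kidney (4.55 ± 0.20), while JCHAIN (ENSSSCG00000035379) of plasma cells differed by 0.81 ± 0.34 (adjusted p = 0.0276; 0.964 in lane 7 alone). Of 8 tested macrophage genes, 4 were higher in kidney and 1 in jejunum, CD68, which missed the threshold in 12 alternative fits. All 5 tested endothelial genes were higher in kidney (median -4.03), with EMCN (-5.17 ± 0.23) and PECAM1 (6.66 to 24.2 against 92.6 to 433 CPM, -3.50 ± 0.18), as were 3 of 4 tested smooth muscle genes, led by ACTA2 (-4.28 ± 0.19). The part that these cells play in the differences of other genes was not tested.

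Most tested transcription factors of gut and kidney identity differed between the tissues. Not every listed factor of kidney development was higher in kidney. Of 18 listed, 13 were tested, 7 higher in jejunum and 5 in kidney, and 9 had ranges that did not overlap. CDX2 (ENSSSCG00000009317), the master regulator of intestinal epithelium, ran from 79.6 to 206.4 CPM in jejunum (median 122.8) and from 0 to 1.21 CPM in kidney (median 0.43; 8.06 ± 0.20, adjusted p = 1.71e-35). ISX (8.05 ± 0.28), GATA4 (7.33 ± 0.26) and KLF5 (5.21 ± 0.21) were next. LHX1 (-5.52 ± 0.33), EMX2 (-4.83 ± 0.23), ESRRG (2.22 to 11.8 against 103.9 to 208.2 CPM, -4.41 ± 0.15) and TFAP2B (-3.00 ± 0.24), which act in kidney development or tubule function, were higher in kidney. HNF4A, which acts in both epithelia, stood at 242.4 to 667 CPM in jejunum (median 510.1) and 169.6 to 846 CPM in kidney (median 462.0; 0.04 ± 0.14, adjusted p = 0.777), while its paralogue HNF4G was higher in jejunum (3.27 ± 0.30).

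Tight junction and water channel genes were divided in the same manner. Of 6 tested claudins, CLDN3 was higher in jejunum (74.9 to 195.4 against 5.59 to 21.2 CPM, 3.59 ± 0.15) and 5 in kidney, with CLDN10 of the tubule at -6.10 ± 0.25 and CLDN2, a cation pore of leaky epithelia, at -1.15 ± 0.20. Of 6 tested aquaporins, AQP10 (149.2 to 755 against 0.21 to 6.21 CPM, 8.40 ± 0.29), AQP8 (7.51 ± 0.32) and AQP11 (ENSSSCG00000014880; 0.83 ± 0.18; adjusted p = 0.151 in lane 7 alone) were higher in jejunum. AQP1, the constitutive channel of the proximal tubule (154.3 to 473.6 against 826.5 to 6321 CPM, -3.30 ± 0.20), AQP6 (-5.85 ± 0.23) and AQP3 (-1.78 ± 0.24) were higher in kidney.

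Nuclear genes of the respiratory chain were higher in kidney in 10 of 15 tested, with 1 in jejunum and 4 not past the threshold (median -0.67). NDUFA4 stood apart, at 5.57 to 25.1 CPM in jejunum (median 12.4) and 7.37 to 795 CPM in kidney (median 234.3; -4.40 ± 0.32), its lowest kidney level in replicate 7. The other 9 kidney calls lay between -1.65 and -0.45. The share of counts from the 13 protein genes of the mitochondrial genome was 9.76 ± 5.85% in jejunum (SD, n = 19) and 9.25 ± 3.17% in kidney (n = 24), which a two-sided permutation test did not separate (p = 0.73). Within lane 7 the means were 13.8 and 10.1% (p = 0.17), and within lane 8 they were 6.85 and 8.38% (p = 0.041), so the direction differed between lanes. The 10 most abundant genes of each library took 15.5 ± 4.54% of counts in jejunum and 11.7 ± 3.25% in kidney (p = 0.001). Ribosomal protein genes went both ways, 4 higher in jejunum, 3 in kidney and 4 not past the threshold, with a median of 0.05 that was -0.20 with library totals.

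Markers of liver and muscle were counted in both tissues. The summed skeletal muscle list ran from 2043 to 10450 CPM in jejunum (median 3100) and from 1122 to 5264 CPM in kidney (median 1752). In this paragraph, percentages of summed lists use CPM of library totals without TMM factors, and the other levels are TMM-scaled. On the scale of library totals, the muscle list had medians of 1.11% in jejunum and 0.766% in kidney of the mean in muscle. All 6 tested muscle genes were higher in jejunum, and their log2 fold changes lay between 0.76 and 0.93. The mean of the summed hepatocyte list was 1.18% of the liver mean in jejunum and 0.863% in kidney, and 7 of its 9 tested genes were higher in jejunum; CPS1, which enterocytes also express, stood apart at 7.42 ± 0.32. The mean sums of kidney lists in jejunum made up 2.14% (thick limb and distal tubule), 4.19% (glomerulus) and 7.17% (collecting duct) of their kidney mean, and the goblet cell list in kidney 0.59% of its jejunum mean. AQP3 made the largest part of the collecting duct sum in jejunum, with a mean of 49.2 CPM where the sum had a median of 70.3 CPM. It stood at 28.6% of its kidney mean, whereas SCNN1B, SCNN1G, ATP6V0D2 and ATP6V1G3 lay between 1.25 and 1.99%. Of these kidney lists, AQP2 and FOXI1 were at 0 in all jejunum libraries, and of the goblet list only MUC2 was at 0 in all kidney libraries. The part of these transcripts in the low levels reported above was not tested.

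**Figure D5:**
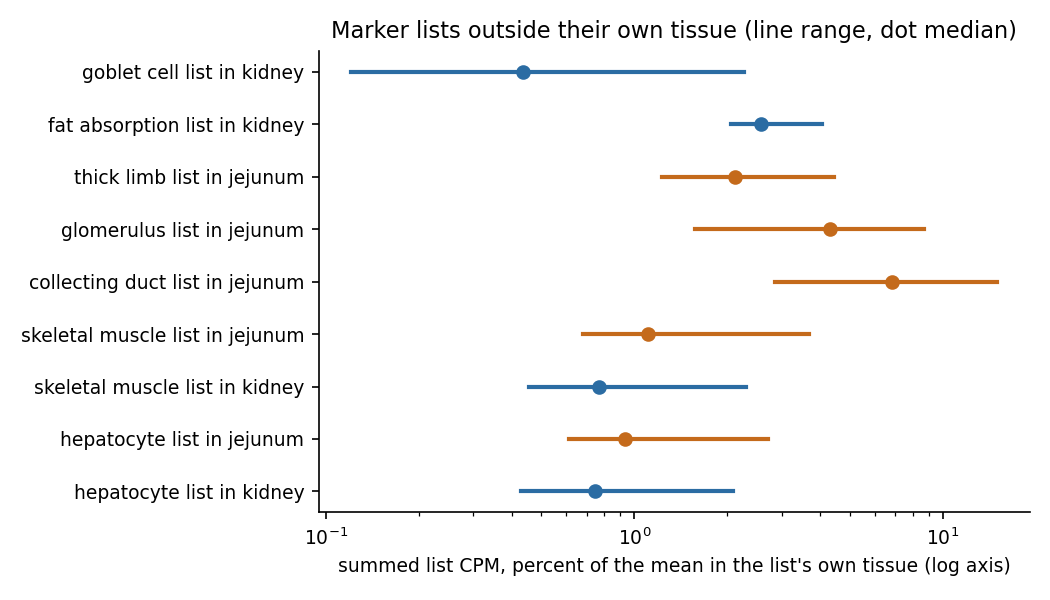
Summed CPM of marker lists in a tissue other than their own, as a percent of the mean in their own tissue (log axis). CPM here is of library totals, without TMM factors. The line is the range over libraries and the dot the median, with jejunum in orange and kidney in blue. The muscle and liver lists lie at medians between 0.744 and 1.11%, and the collecting duct list in jejunum, where AQP3 makes the largest part of the sum, at 6.81%.

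The diets were compared within this contrast as well. In the model with a separate diet effect for each tissue, 0 of 10349 genes (0.0%) had a diet effect that differed between jejunum and kidney by edgeR's test, and 351 (3.39%) had an unadjusted p under 0.05. DESeq2 and limma also called 0 genes, with 410 and 753 at an unadjusted p under 0.05. On the simulated data, the same test recovered 27% of genes whose diet effect differed 2-fold and 80% at 4-fold. Those data held no difference between the tissues without xylose, and the changed genes came from those with higher mean counts. Recovery for genes that differ between the tissues was not measured. The smallest p belonged to MAGIX, with a log2 difference of 1.83 ± 0.49 (adjusted p = 0.995), and in the other direction to SAP30 (-1.12 ± 0.30, adjusted p = 0.995). The log2 fold change of SI was 8.46 ± 0.37 on the xylose-free diet and 7.78 ± 0.41 on xylose, that of SLC5A1 6.44 ± 0.27 and 6.30 ± 0.33, that of SLC34A1 -6.73 ± 0.28 and -6.34 ± 0.33, and that of UMOD -6.90 ± 0.38 and -5.90 ± 0.33.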

How the data were processed

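Counts per Ensembl gene were deposited by the authors as raw whole numbers, 1 file per library. STAR and featureCounts are named per the submitters' processing notes, without versions. The names of the deposited counts also carry htseq, and the role of each tool is not stated. No source used here gives the genome build, the annotation, the strand setting or how reads with several matches were treated. The file table held 25880 gene identifiers, 14857 of which had a symbol in the name table supplied. Files were assigned by title, libraries under 1000000 counts were left out, and every pair of libraries of a tissue differed by more than counting noise (chi-square over its degrees of freedom at least 8.393 in jejunum and 6.776 in kidney). Genes were filtered with filterByExpr by tissue, scaled with TMM and tested with edgeR 4.0.16 (glmQLFit and glmQLFTest, R 4.3.3) with lane as covariate and Benjamini-Hochberg adjustment over 10349 genes. SE is the absolute log2 fold change divided by the square root of F. Shares of counts were compared with a two-sided permutation test of 100000 resamples (Python 3.11.15, numpy 2.4.6, pandas 2.3.3). On simulated counts the tissue test recovered 44, 89, 96 and 94% of genes changed 1.5-, 2-, 4- and 8-fold. The simulation gave every other gene the same level in both tissues and drew the changed genes from those with higher mean counts. These rates describe that setting and not the data, where 75.3% of genes differed.

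The members and gene lists were chosen with earlier results of these data known; 329 of 380 distinct listed genes were found by symbol. Genes named are the label markers, the pairs, up to 4 members per list and direction with the largest change, the 10 largest changes in each direction of genes that have a symbol and averaged at least 50 CPM in the higher tissue, and the smallest interaction p-values. Chosen after their values were seen were APOA1, APOB, CYP27B1, DAB2, DCXR, DPP4, EGF, ENPEP, FBP1, G6PC1, MME, MTTP, MYO7B, PECAM1, SLC1A1, SLC22A8, SLC34A3, SLC3A1, SLC6A6, SLC8A1, SORD, XYLB and the untested TREH, SLC34A2, AQP2, FOXI1 and MUC2. Some members of the lists and pairs are counted but not reported here by name. Alternatives were other scalings and filters, DESeq2 1.42.0, limma 3.58.1, other covariates, single lanes and diets, all libraries, all 4 tissues and a block by plate position; leaving out the 5 libraries least like their tissue was chosen after seeing the data.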

Additional observations from a re-analysis of the deposited data

How the results depend on the processing

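With no filter on low counts, 12785 genes passed the threshold, 6857 of them higher in jejunum, and at 2-fold or more 5339 were higher in jejunum and 4108 in kidney; more genes were tested there. The number of genes at least 128-fold higher in kidney was 2 with library totals alone, 5 in lane 7, 6 in lane 8, 11 on the xylose-free diet and 2 on xylose. Of 205 named genes, 178 kept direction and call in every alternative that gave a value, 22 lost the call in at least 1, and 5 changed sign in at least 1. Those 5 were near 0. The log2 fold change of DPP4 was 0.081 in lane 7, 0.035 on xylose, 0.038 with 4 tissues in the fit and 0.008 without jejunum replicates 5 and 15. With library totals alone it was -0.19 for HNF4A, -0.024 for MME and -0.108 for SLC3A1. HNF4A was also at -0.116 with no filter, -0.064 with 1 CPM in 12 libraries, -0.044 with limma, -0.012 in lane 7, -0.021 on the xylose-free diet, -0.079 with all libraries, -0.037 without kidney replicates 5, 7 and 17 and -0.045 without all 5 libraries. SLC3A1 was at -0.249 with limma, -0.388 in lane 7 and -0.002 with the block. XYLB was at 0.414 in lane 8, 0.203 on the xylose-free diet, 0.03 with 4 tissues, 0.009 without the 3 kidney replicates and 0.026 without all 5. The mitochondrial share in jejunum minus kidney was -1.525 percentage points in lane 8 and -0.4439 without all 5 libraries. Apart from the number of genes tested, the cause was not tested.

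With plate position as a block, 7538 genes passed. The correlation of libraries sharing a position ran from -0.167 to 0.546 over 19 positions (median 0.111, against -0.007 for other positions of the lane), with 10 over 0.1, and 9 of 19 jejunum libraries correlated best with their own position. Jejunum and kidney libraries at a position also shared the lane and the diet. These values and this layout are a hint that libraries at a position may share an animal, which the labels do not state. Not every pair was over 0.1, and the block was kept as an alternative. If the libraries are paired by animal, the main fit does not use that pairing.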
